A study of Mus musculus with 6 samples.

Results

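The genes examined here carry metals and anions across membranes or bind metals inside the cell. They are the protein-coding genes of the RefSeq annotation whose symbols begin with Slc4a, Slc13a, Slc26a, Slc11a, Slc30a, Slc39a, Slc40a, Slc41a or Slc48a, together with Mt1, Mt2, Mt3, Mt4 and Mtf1. The rule gave 63 genes of 21883, all of them placed on the mm10 chromosomes. One of them, Slc4a1ap, encodes an adaptor protein and not a carrier, and was kept because its symbol fits the rule. CTCF occupancy around them was read from 4 deposited peak lists of Hepa-1c1c7, a mouse hepatoma cell line. Untreated cells (2 libraries, 0 µM chromium) were compared with cells given 25 µM chromium, as potassium chromate, for 90 min before fixation (2 libraries). Each library was called against 1 of 2 input samples, numbered like the libraries, and the titles of the inputs name no chromium treatment. The labels do not state whether the libraries within a group are separate cultures, and the p-values then measure only the spread between these libraries, which may be technical.

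Chromate is an oxyanion shaped like sulfate, and it enters cells through carriers of such anions. Slc4 and Slc26 proteins are mostly bicarbonate carriers and anion exchangers, and Slc13 proteins carry sulfate or di- and tricarboxylates together with sodium. Zinc is moved into the cytosol by Slc39 proteins and out of it by Slc30 proteins, iron is moved by Slc11 proteins and exported by Slc40a1, and metallothioneins bind zinc, copper and cadmium. Mtf1 is the zinc-sensing transcription factor that switches metallothionein genes on by binding metal response elements in their promoters. CTCF is a zinc finger protein that marks insulators, domain borders and many promoters. A peak shows that CTCF chromatin was enriched at a position, and it gives no level of gene expression. For that reason the labelled cell type could not be checked against marker genes. CTCF peaks lay at or within 10 kb of 4 of 9 hepatocyte marker genes, 2 of 3 fibroblast markers and 2 of 3 immune markers, beside 41.4% of all protein-coding genes, and nothing about the cell type can be read from these counts.

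The lists differed in length. The number 1 libraries had 11707 peaks (untreated) and 14881 (chromium), the number 2 libraries 4495 and 1905, and the read depth of the libraries is unknown here. Each peak carries the authors' own score. It is used here only as a percentile within its list, where 100 is the strongest peak. A peak was assigned to a gene when its midpoint lay within 1 kb of either end of the gene (a gene-end peak), inside the gene, or outside it within 10 kb of an end. These 3 positions together are called the zone of the gene. The 63 zones covered 4.48 Mb and held 49 and 58 peaks of the number 1 lists (untreated, then chromium) and 25 and 11 of the number 2 lists. Of these 143 peaks, 21 were gene-end peaks, 68 lay inside a gene and 54 in a flank. A different gene had a nearer end for 41 of them.

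CTCF peaks were common around these genes in both untreated and chromium-treated cells. In untreated 1, 28 of 63 members had a zone peak (44.4%, exact Clopper-Pearson 95% interval 31.9 to 57.5), against a background of 25.8% of all protein-coding genes. In chromium 1 it was again 28 members (44.4%), against 28.6%. Untreated 2 had 14 (22.2%, 12.7 to 34.5) against 11.4%, and chromium 2 had 8 (12.7%, 5.65 to 23.5) against 4.86%. In each of the 4 lists the share of members was above that of all genes. Intervals cover counting error over genes only. In all, 39 members (61.9%) had a zone peak in at least 1 list, beside 41.4% of all genes, and 24 had none.

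**Figure D1:**
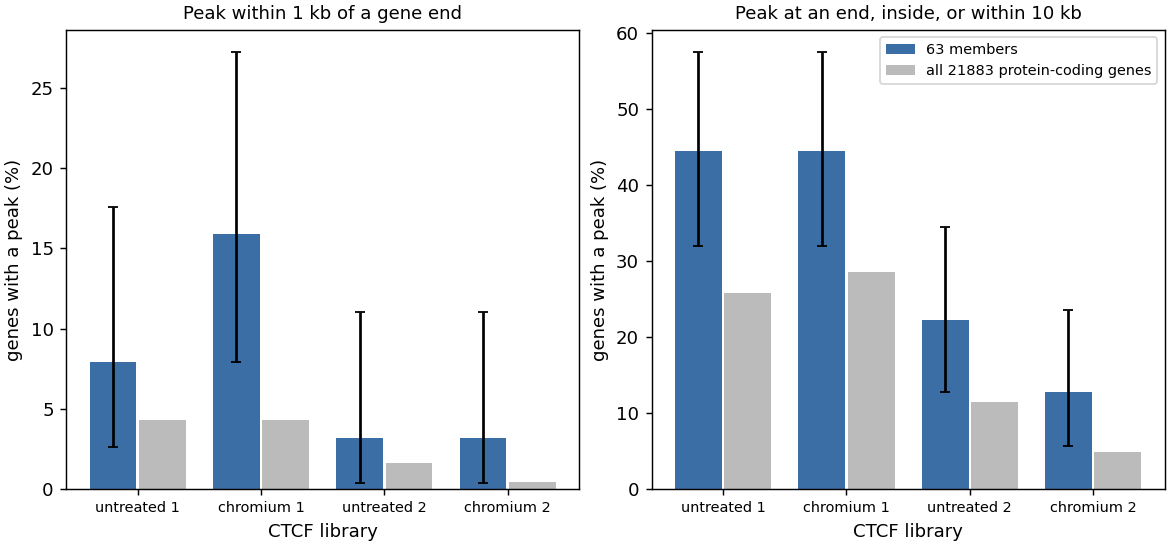
Percentage of genes with a CTCF peak in each library, for the 63 members (blue, with exact 95% binomial intervals) and all 21883 protein-coding genes (grey). The left panel counts peaks within 1 kb of a gene end and the right panel peaks anywhere in the zone. The blue bar is above the grey bar in each library, and the gap at gene ends is widest in chromium 1, at 15.9% against 4.31%.

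At gene ends, with the 1 kb window, more members were called in chromium 1 than in untreated 1. Gene-end peaks were called at 5 members in untreated 1 (7.94%, 2.63 to 17.6, background 4.31%), at 10 in chromium 1 (15.9%, 7.88 to 27.3, background 4.31%), at 2 in untreated 2 (3.17%, 0.387 to 11, background 1.63%) and at 2 in chromium 2 (3.17%, 0.387 to 11, background 0.43%). In any list, 13 members (20.6%) had one, beside 8.55% of all genes. All protein-coding genes had equal counts in the number 1 lists, at 943 each. The excess of chromium 1 over untreated 1 held for this window alone of the 3 tried. Within 500 bp of an end both number 1 lists had 5 members, and within 2.5 kb both had 11. With peaks inside the gene counted too, 20 members (31.7%) had a peak in untreated 1 beside 17.1% of all genes, 20 (31.7%) in chromium 1 beside 19.8%, 12 (19%) in untreated 2 beside 7.52%, and 6 (9.52%) in chromium 2 beside 3.37%. By this rule 33 members (52.4%) were called in at least 1 list, beside 29.6%.

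Compared by treatment, none of the 3 summary shares separated the groups. Zone peaks were called at 33.3% ± 15.7 (SD, n = 2) of members without and 28.6% ± 22.4 (SD, n = 2) with chromium, a difference of -4.76 percentage points (two-sided exact permutation test, p = 1, adjusted p = 1). Gene-end peaks were called at 5.56% ± 3.37 (SD, n = 2) and 9.52% ± 8.98 (SD, n = 2), a difference of 3.97 points (same exact permutation test, p = 1, adjusted p = 1). Peaks in member zones made up 0.419% of the untreated and 0.390% of the chromium list of number 1, and 0.556% and 0.577% of those of number 2, and the mean difference was -0.00377 points (exact permutation p = 1, adjusted p = 1, over 3 tests, Benjamini-Hochberg). The groups overlapped in every case. With 2 libraries against 2 this test cannot give a p below 0.33. By number, the zone share differed by 0 points between the number 1 lists and by -9.52 points between the number 2 lists. In the same order, the gene-end share differed by 7.94 and 0 points. The zone share turned its direction when either of 2 libraries was left out. The difference was 6.35 points without untreated 1 and 11.1 points without chromium 2. The gene-end difference rested on chromium 1, without which it was -2.38 points.

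Members were longer at the median than all protein-coding genes, and their zones held more peaks per length. The median member was 27.5 kb long and the median protein-coding gene 17.2 kb. Per length of zone, members had 10.9 and 12.9 peaks per Mb in the number 1 lists (untreated, then chromium) and 5.58 and 2.45 in the number 2 lists. The zones of all protein-coding genes had 5.74, 7.15, 2.15 and 0.829 peaks per Mb in the same order, so the ratio was 1.90, 1.81, 2.60 and 2.96. Set against the density of each member's own chromosome, in an alternative chosen after the data were seen, the ratio was 1.63, 1.55, 2.05 and 2.42. Chromosome 15 is dense in these lists and holds 5 members. Without it the plain ratio was 1.74, 1.79, 2.58 and 1.72.

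Regional peak density was also counted. Within 1 Mb on either side of the midpoint of the gene, the 39 members with a peak had a median of 12 peaks per Mb in untreated 1 and 13.5 in chromium 1. The 24 members without a peak had 0.75 and 1 peaks per Mb, and the median over all protein-coding genes was 4 and 5. Split the same way, the 9062 protein-coding genes with a zone peak had medians of 8 and 10 and the other 12821 had 1.5 and 2. These regional counts include the genes' own peaks. The members with a peak were not all in dense regions, since 4 of the 39 lay below the all-gene median in untreated 1 and 5 in chromium 1. Slc4a4, with 0.5 peaks per Mb in each number 1 list, Slc41a3, with 1.5 and 0, and Slc4a5, with 3 and 0.5, were among them. None of the 3 members on chromosome 12, of the 3 on chromosome 14 or the 1 on chromosome 9 had a peak, and the share of the untreated 1 list on chromosome 12 was 0.376%. Of the 7 members on chromosome 5, 1 had a peak. All members had peaks on chromosomes 3 (3 members), 6 (4), 10 (4), 13 (1) and 18 (3). These small counts by chromosome have no share of all protein-coding genes beside them, and are given as description only. In untreated 1 the density was 3.16 peaks per Mb over chromosome 6 and 3.27 over chromosome 5. Within 1 Mb on either side of the members it was 1.5 to 6 on chromosome 6 and 0 to 0.5 on chromosome 5. The part of regional density in the members' shares was not tested.

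**Figure D2:**
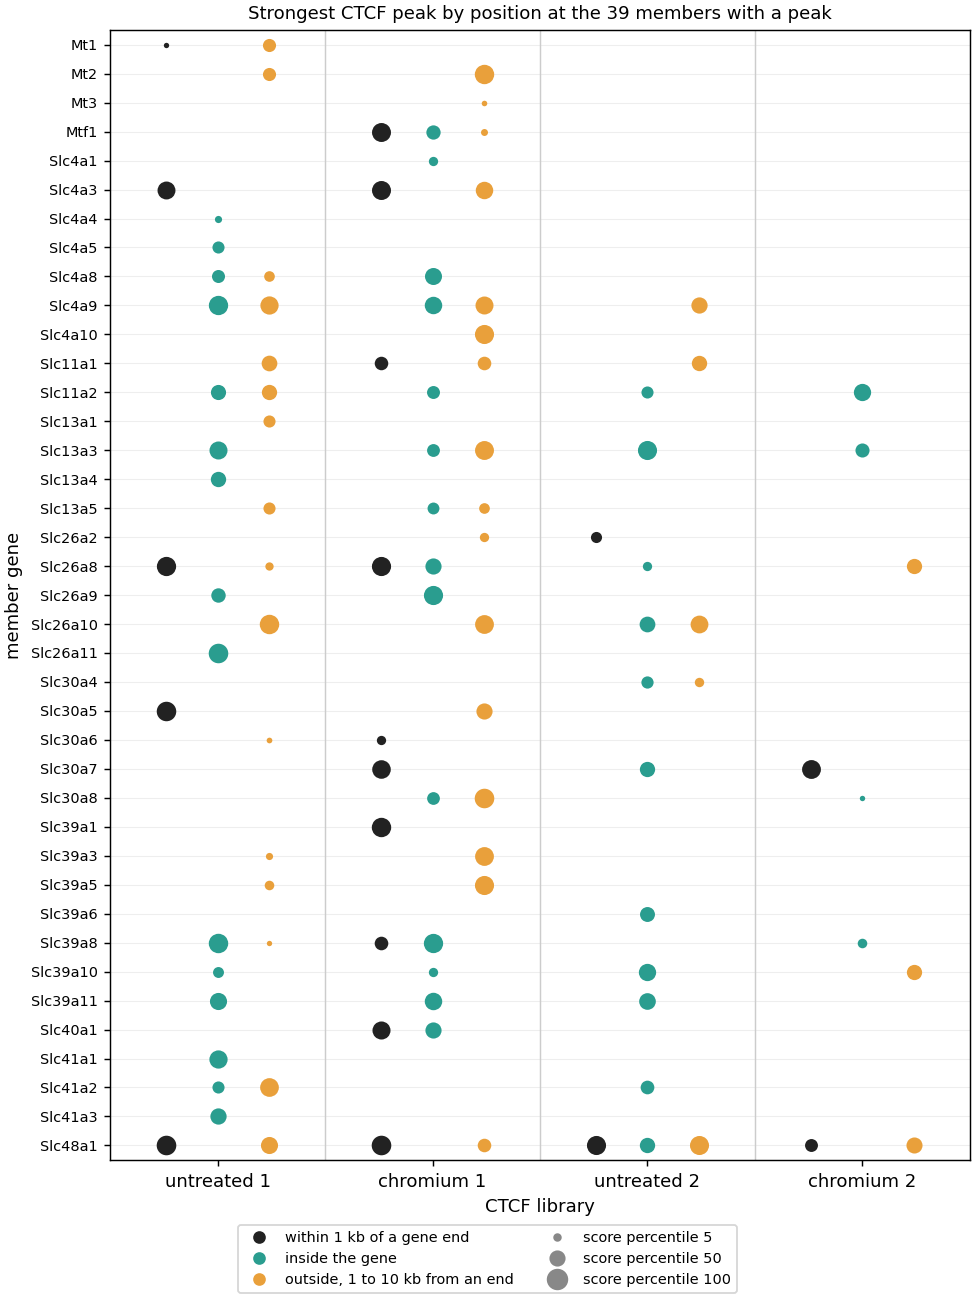
The 39 members with a zone peak (rows) in the 4 CTCF libraries (columns). Each dot is the strongest peak of that gene at that position, coloured by position and sized by its score percentile within the list. Slc48a1 at the bottom is the 1 member with a gene-end peak in each of the 4 libraries, and the metallothionein genes at the top have dots only in the number 1 libraries.

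By gene, 5 members had zone peaks in all 4 lists (7.94%, beside 1.64% of all protein-coding genes). They were Slc11a2, Slc13a3, Slc26a8, Slc39a10 and Slc48a1. No single member site was called in all 4 lists, so these calls came from peaks at different places. Without flanks 3 members (4.76%) had a peak in all 4 lists, beside 1.03%, and 3 in all but chromium 2, beside 2.6%. With flanks 4 members had zone peaks in all but chromium 2 (6.35%, beside 4.62%). At gene ends no member was called in both untreated lists alone (0.274% of all genes) or in all but chromium 2 (0.311%). Only Slc41a2, a magnesium carrier, had peaks in both untreated lists and in neither chromium list, which makes 1.59% of members beside 1.26% of all genes (0.887% when flanks are left out). Its untreated peaks lay at different places, in untreated 2 inside the gene 1.86 kb from its 3′ end (percentile 45), and in untreated 1 inside it 10.1 kb from the 5′ end (33.6) and 5.35 kb outside that end (90.3). The opposite pattern was found at Slc30a8, the zinc transporter of insulin granules (1.59% of members, beside 0.521%, or 0.393% when flanks are left out). The nearest untreated peaks lay beyond the limit, 13.6 kb from Slc30a8 in untreated 2 and 20.3 kb in untreated 1. Its chromium 1 peaks were at the 99.5 percentile 4.32 kb outside the gene and at 38.1 inside it. The chromium 2 peak was at 0.840. The treatment patterns at both genes thus came from peaks that did not coincide. These counts depended on single libraries, for members and for all genes. With chromium 1 left out, 5 members (7.94%, beside 5.88% of all genes) had the untreated-only pattern. With untreated 2 left out it was 9 (14.3%, beside 9.61%), and with untreated 1 left out 3 (4.76%, beside 3.09%). The chromium-only pattern was found at 7 members (11.1%, beside 11.2%) with chromium 2 left out, and at 2 with either untreated library left out (3.17%, beside 1.55% without untreated 1 and 0.795% without untreated 2).

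Slc48a1, which encodes a heme transporter of endosomes and lysosomes, had the strongest peak of all members. A site at its lower-coordinate end spanned 97784105 to 97784472 on chromosome 15. Its peak in untreated 1 was at the 99.9 percentile, rank 10 of the list, with a score of 32.3. In chromium 1 it was at 99.8, rank 27, and in untreated 2 at 94.4. In these 3 libraries the peak midpoints lay 65, 89.5 and 81 bp outside the gene. Chromium 2 had no peak at this site, and its nearest peak was 3.65 kb away. It had 4 other peaks in the zone, at percentiles of 22.3 to 64.6, among them a gene-end peak 460.5 bp inside the higher-coordinate end and 0.43 kb from the end of the neighbouring Hdac7, a histone deacetylase. Slc48a1 was therefore called at a gene end in all 4 lists, as were 0.0183% of all protein-coding genes, but not at the same site. Its 8.33 kb body and flanks held 14 peaks in all. The surrounding 2 Mb were also dense, with 31.5 and 40 peaks per Mb in the number 1 lists and 19.5 and 7.5 in the number 2 lists, against 14.9, 18.6, 9.51 and 4.53 over chromosome 15.

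**Figure D3:**
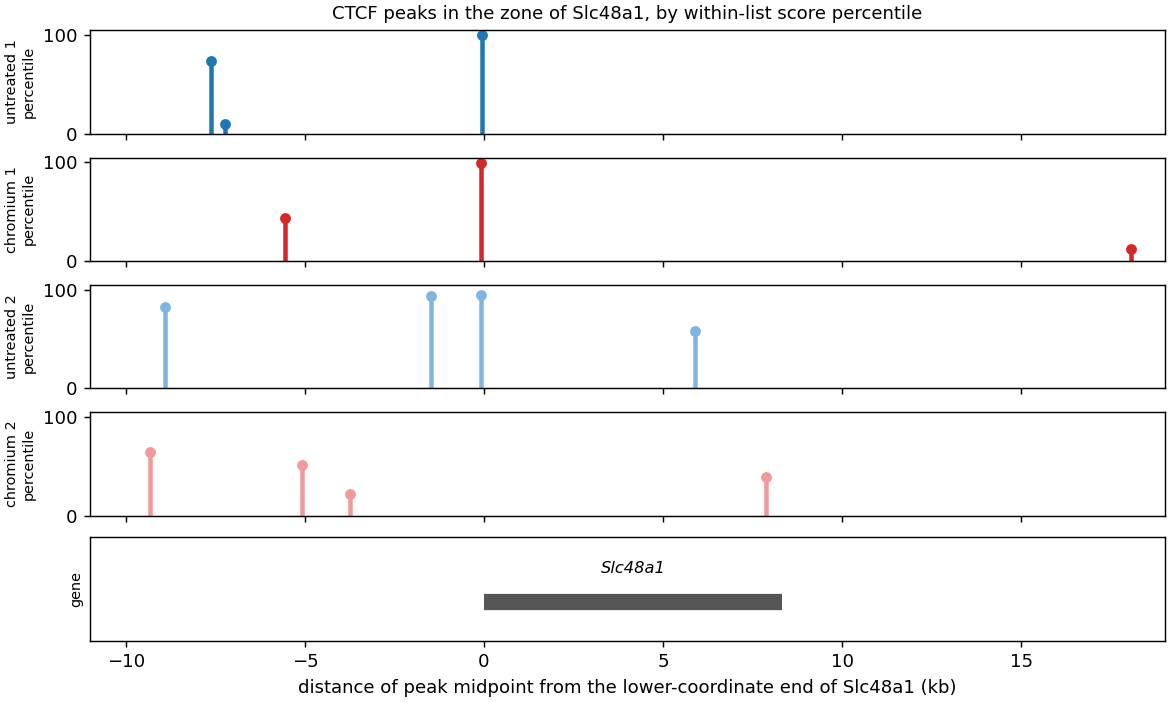
CTCF peaks in the zone of Slc48a1 in the 4 libraries. The horizontal axis is the distance of the peak midpoint from the lower-coordinate end of the gene in kb, the height of each line is the score percentile within the list, and the grey bar is the gene. Untreated 1, chromium 1 and untreated 2 share a tall peak at the gene's lower end, where chromium 2 has none.

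The 7 members of the small families Slc11, Slc40, Slc41 and Slc48 (with Slc48a1 above) carry iron, manganese, magnesium or heme. All 7 had a zone peak in at least 1 list, beside 41.4% of all protein-coding genes. The difference was not tested for so small a group. These 7 are not all the members that carry such metals. Slc39a8, which takes up manganese, had zone peaks, and the iron importer Slc39a14 had none. Slc11a2, the divalent metal transporter DMT1 that brings iron into cells, had peaks in every list and no 2 of them overlapped. There were 4 in untreated 1, at percentiles of 14.0 to 57.7, 2 in chromium 1 at 39.5 and 0.716, and 1 each in untreated 2 at 33.4 and in chromium 2 at 75.9. It lies on chromosome 15 in a region with 37.5 peaks per Mb in untreated 1. Slc11a1, the phagosomal metal transporter NRAMP1, had a chromium 1 peak 818 bp outside its 3′ end at the 43.8 percentile. A flank site 4.55 kb beyond that end was shared by chromium 1 and untreated 2 at 44.3 and 23.3, and untreated 1 had a separate peak 0.932 kb from it. Slc40a1, the iron exporter ferroportin, had 2 chromium 1 peaks, 1 of them 592.5 bp outside its lower-coordinate end at 83.5. No other list, chromium 2 included, had a peak within 10 kb of it. The nearest were 10.4 kb away in untreated 1, 20.2 kb in untreated 2 and 46.1 kb in chromium 2. The magnesium carriers Slc41a1 and Slc41a3 had 1 untreated 1 peak each inside the gene, at 85.3 and 66.4.

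The zinc exporters of the Slc30 family had gene-end peaks at Slc30a5, Slc30a6 and Slc30a7. Slc30a5, which loads zinc into the secretory pathway, had 1 of the strongest member peaks, on its promoter and in untreated 1 alone. The peak (chromosome 13, 100833445 to 100833773) was at the 98.9 percentile with a score of 11.6, and its midpoint lay 129 bp outside the 5′ end. The nearest chromium 1 peak was 6.40 kb outside that end at 65.6, and the number 2 lists had none in the zone. The sequence before the gene, from RefSeq on build GRCm38.p6, is shown because it lies whole within this peak and holds the inner letters of the CTCF motif, AGGNGGC, at 2 places. It reads 5′ to 3′ on the minus strand of chr13:100833481-100833677, with the motif letters in capitals.
Slc30a5: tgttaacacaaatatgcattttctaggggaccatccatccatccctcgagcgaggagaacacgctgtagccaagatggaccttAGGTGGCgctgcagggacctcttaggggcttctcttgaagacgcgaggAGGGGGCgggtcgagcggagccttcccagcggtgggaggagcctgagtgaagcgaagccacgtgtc
Both matches were on the strand of the gene, 167 and 119 bases before the annotated start of transcription.

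Slc30a7, another exporter of the Golgi and secretory vesicles, held the only member site called in both chromium lists and in neither untreated list. It spanned 116006684 to 116007009 on chromosome 3, at the 88.9 percentile in chromium 1 and 91.8 in chromium 2. The peak midpoints lay inside the gene, 539 and 615 bp from its 5′ end, and 0.574 and 0.650 kb from the end of Extl2, a glycosyltransferase gene. Untreated 2 had a peak elsewhere in the gene, 10.5 kb from the site, at 57.7, and the nearest untreated 1 peak was 19 kb from it. Only 15 sites of the whole genome had this pattern, and by gene-end peaks 0.0274% of all protein-coding genes had it. Slc30a6 had a chromium 1 peak 726 bp inside its 3′ end at 16.8, and an untreated 1 peak 9.89 kb outside the gene at 1.80. Slc30a4 had 2 untreated 2 peaks, at 34.4 inside the gene and 17.4 outside it. The other 5 of the 10 members of this family, Slc30a1, Slc30a2, Slc30a3, Slc30a9 and Slc30a10, had no zone peak in any list, where 41.4% of all genes had one.

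Among the zinc importers of the Slc39 family, 7 of 14 had a zone peak in any list, beside 41.4% of all genes. Slc39a1, the ZIP1 importer of the cell surface, had a promoter peak in chromium 1 alone (chromosome 3, 90247905 to 90248113), at the 97.6 percentile and 181 bp before the gene. The bases before this gene are shown for comparison with those of Slc30a5. They are 248 bases on the plus strand, chr3:90247942-90248189, of which the first 172 lie in the peak, with AGGNGGC again in capitals.
Slc39a1: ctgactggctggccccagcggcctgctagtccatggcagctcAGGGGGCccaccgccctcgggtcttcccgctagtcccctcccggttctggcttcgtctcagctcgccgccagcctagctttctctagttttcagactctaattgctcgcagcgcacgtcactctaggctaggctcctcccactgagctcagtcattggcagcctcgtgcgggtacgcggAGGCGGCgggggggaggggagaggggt
The match 208 bases before the start is inside the peak and the match 29 bases before it is outside.

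Slc39a8, the importer ZIP8 that takes up zinc and manganese, had 9 peaks in its zone, the most of any importer but the much longer Slc39a11. Inside the gene 2 sites were shared by untreated 1 and chromium 1. The first (chromosome 3, 135862869 to 135863318) was at the 98.2 percentile in untreated 1 and 32.1 in chromium 1, and the second (135886658 to 135886977) at 61.7 and 96.4. Each value is a rank within its own list, and the lists differ in length. Chromium 1 also had gene-end peaks at 3.75 near the 5′ end and 44.4 near the 3′ end, and chromium 2 a peak at 18.2 that lay 1.19 kb from the second site. Untreated 2 had none within 83.3 kb. Slc39a11, with a body of 405 kb, had 12 scattered peaks in 3 lists, at percentiles of 3.37 to 77.8, and none of them were shared. Slc39a10 had 1 peak in each list, at 26.1 and 16.8 in the number 1 lists and 76.2 and 57.6 in the number 2 lists, and none of these were shared. The chromium 1 flank peaks of Slc39a3 and Slc39a5 were strong, at 91.3 and 94.4. Untreated 1 also had a flank peak of each gene, at 7.08 and 18.3. All of these peaks had a nearer end of another gene, Diras1 or Sgta beside Slc39a3 and Nabp2 beside Slc39a5. No zone peak was found at Slc39a14, the main importer of non-transferrin iron in hepatocytes, whose nearest peak in any list was 198 kb away, or at Slc39a2, Slc39a4, Slc39a7, Slc39a9, Slc39a12 and Slc39a13. Slc39a7 lay just beyond the limit, with an untreated 1 peak 12 kb away.

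Sulfate and dicarboxylate carriers of the Slc13 family had zone peaks in any list at 4 of 5 members, beside 41.4% of all genes, and gene-end peaks at 0 of 5, beside 8.55%. Slc13a3, a carrier of succinate and related dicarboxylates, had 10 peaks in 4 lists within 67.9 kb and its flanks. A site inside it (chromosome 2, 165407937 to 165408302) was shared by untreated 1 at the 83.3 percentile and chromium 1 at 38.8. Untreated 2 had 4 peaks there, the strongest at 94.3, and chromium 2 had 1 at 47.9. The region held 27.5 peaks per Mb in untreated 1. Slc13a5, the citrate carrier of liver, had a site shared by the number 1 lists 4.25 kb outside its 5′ end, at 33.6 in untreated 1 and 24.5 in chromium 1. The sulfate carriers Slc13a1 and Slc13a4 had 1 untreated 1 peak each, at 33.6 and 58.2, and Slc13a2 had none.

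In the Slc26 family of anion exchangers, 5 of 11 members had zone peaks in any list, beside 41.4% of all genes. Slc26a2, a sulfate carrier of most cells, had an untreated 2 peak 154 bp from its lower-coordinate end at the 27.3 percentile and a chromium 1 peak 3.71 kb outside it at 16.8. Slc26a8, an exchanger of male germ cells, had a gene-end site on chromosome 17 (28690913 to 28691297), at 96.0 in untreated 1 and 95.1 in chromium 1. This site lay 162.5 and 186.5 bp inside its 5′ end and at most 0.256 kb from the end of Mapk14, which encodes the stress kinase p38 alpha. The number 2 lists lacked it, and their nearest peaks were 18.6 and 7.81 kb away. At Slc26a10 a flank site (chromosome 10, 127164919 to 127165249) was at 98.2 in untreated 1, 91.3 in chromium 1 and 81.1 in untreated 2. That site was 6.28 kb from Slc26a10 but at most 0.072 kb from an end of B4galnt1, a ganglioside synthase gene, and chromium 2 had no peak within 351 kb. Slc26a11 had an untreated 1 peak at 99.3 inside the gene, 8.21 kb from its lower end and from the adjoining end of Sgsh, which encodes a lysosomal enzyme of heparan sulfate breakdown. Slc26a9 had peaks at 50.7 in untreated 1 and 95.2 in chromium 1 at different places inside the gene. Slc26a1, Slc26a3, Slc26a4, Slc26a5, Slc26a6 and Slc26a7 had none.

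The bicarbonate and anion exchangers of the Slc4 family had zone peaks in any list at 7 of 11 members, beside 41.4% of all genes, and in chromium 2 at 0 of 11, beside 4.86%. Slc4a3, the chloride and bicarbonate exchanger of heart and brain, had a site 0.27 kb outside its 3′ end on chromosome 1 (75559563 to 75559839), at the 82.3 percentile in untreated 1 and 93.3 in chromium 1. Chromium 1 had a weak peak at its 5′ end too, at 3.37. Slc4a9, an anion exchanger of kidney, had 10 zone peaks on chromosome 18. Its site inside the gene (36529834 to 36530091) was at 96.7 in untreated 1 and 16.8 in chromium 1, and a flank site (36525607 to 36525897) at 82.9 in chromium 1 and 66.3 in untreated 2. The flank peak of Slc4a10 in chromium 1 was at 94.4, and an end of Dpp4 lay nearer to it, at 0.829 kb. Slc4a8 had 1 chromium 1 peak at 73.5 and 3 untreated 1 peaks elsewhere in its zone, at 40, 24.4 and 12.7. Slc4a1, band 3 of red cells, had 1 chromium 1 peak at 16.8, and the sodium bicarbonate carriers Slc4a4 and Slc4a5 had 1 untreated 1 peak each, at 7.08 and 33.6. The broadly expressed exchanger Slc4a2, with Slc4a7, Slc4a11 and Slc4a1ap, had no zone peak.

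The metallothionein genes lie side by side on chromosome 8 in the order Mt4, Mt3, Mt2 and Mt1, and only 4 CTCF peaks were called within 10 kb of any of them. In untreated 1, a peak at 94178983 to 94179245 covered the annotated start of Mt1, with its midpoint 25 bp from that start, but its score of 2.40 put it at the 0.683 percentile. A second lay 2.98 kb beyond the gene at 40.6. In chromium 1, a peak between Mt3 and Mt2 (94167297 to 94167552), 5.19 kb before Mt2, was at the 97.6 percentile, and another 8.96 kb before Mt2 was at 1.37. The number 2 lists had no peak within 1 Mb of Mt1, the nearest being 1270 kb away in untreated 2 and 2158 kb in chromium 2. Untreated and chromium peaks were at different places in the cluster, and no metallothionein gene had the same site in 2 lists.

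The bases before Mt2 and a short stretch before the start of Mt1 are shown because they carry the letters TGCNCNC. These letters were searched as a loose form of the core of the metal response element, to which Mtf1 binds. Some matches may therefore not be that core. Matches on either strand are in capitals. The Mt2 stretch is on the plus strand of chr8:94172368-94172617 and the Mt1 stretch on the plus strand of chr8:94179055-94179084.
Mt2: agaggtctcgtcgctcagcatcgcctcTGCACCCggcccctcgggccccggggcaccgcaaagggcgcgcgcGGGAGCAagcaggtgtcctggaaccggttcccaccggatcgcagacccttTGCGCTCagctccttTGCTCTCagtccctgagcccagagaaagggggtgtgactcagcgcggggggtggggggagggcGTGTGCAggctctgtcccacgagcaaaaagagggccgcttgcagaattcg
Mt1: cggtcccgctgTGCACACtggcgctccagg
The 250 bases before the start of Mt2 held 5 matches and no peak of any list. Those before the start of Mt1 held 1 match, 23 bases before the start and within the untreated 1 peak. The annotated start of Mt1 lies inside its gene record, which begins at 94178883. Most of its window (94178839 to 94179088), with the printed stretch, is therefore inside the record. The counts of Mt1 and Mt2 thus cover unlike stretches. Neither window held AGGNGGC. Mt3 had 1 match to TGCNCNC and Mt4 had 4.

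**Figure D4:**
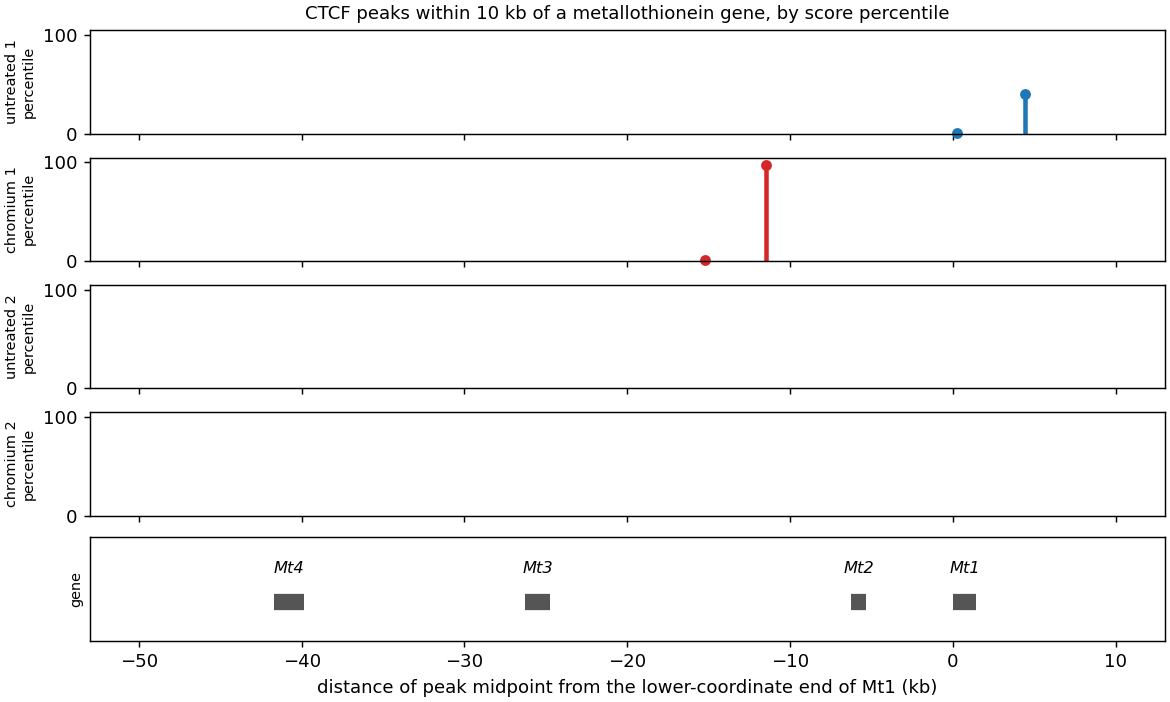
CTCF peaks within 10 kb of a metallothionein gene in the 4 libraries. The horizontal axis is the distance of the peak midpoint from the lower-coordinate end of Mt1 in kb, the height of each line and dot is the score percentile within the list, and grey bars are the genes. The strong chromium 1 peak at the 97.6 percentile and the weak untreated 1 peak over Mt1 lie at different places, and the lower panels are empty.

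Mtf1 was called in chromium 1 alone. Its 4 peaks there were at percentiles of 93.1, 49.6, 32.1 and 6.31. The strongest lay 609.5 bp before its 5′ end on chromosome 4 (124801830 to 124802049) and 0.429 kb from an end of Inpp5b, an inositol phosphatase gene. The nearest peak of any other list was 116 kb away, in untreated 1.

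**Figure D5:**
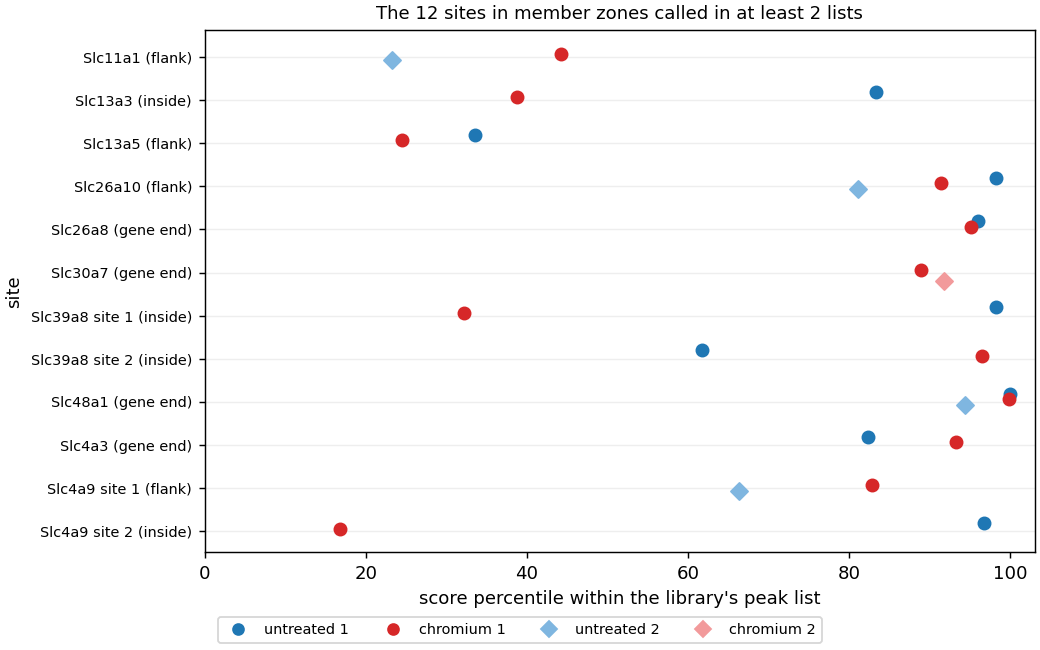
The 12 CTCF sites in member zones that were called in at least 2 lists. Each point is the score percentile of the site in 1 library, with circles for the number 1 and diamonds for the number 2 libraries. The sites at Slc48a1 and Slc26a8 are high in each list that holds them, whereas those inside Slc39a8 and Slc4a9 are high in 1 list only.

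Most member peaks were found in a single list. The 143 peaks merged into 129 sites, of which 12 (9.30%) were in at least 2 lists and 2 in at least 3. The same share was 5.31% of the 19210 sites in the zones of all protein-coding genes and 4.55% of all 31285 sites. Of the 12 sites, 7 were shared by untreated 1 and chromium 1 alone and 2 by chromium 1 and untreated 2. Another 2 were in both untreated lists and chromium 1, and 1 was in the chromium lists alone. In the same order, these patterns made up 774, 134, 220 and 15 of the 1425 shared sites in the genome. No member site was in both untreated lists and neither chromium list. That pattern was found at 198 of the 31285 sites in the genome, too few to expect many among 129. Without chromium 1 only 2 member sites were shared, and without untreated 1 there were 5. Scores of member peaks lay near the middle of their lists, with a median percentile of 41.4 and 43.8 in the number 1 lists and 57.7 and 51.0 in the number 2 lists. Peaks at or above the 95 percentile numbered 14 of 143 (9.79%), beside about 5% of each whole list by the definition of a percentile. They were 7 in each number 1 list (14.3% of member peaks in untreated 1, 12.1% in chromium 1). The number 2 lists had none among 25 and 11 member peaks, too few to expect many.

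Promoter windows were available in RefSeq for 49 of the 63 members. In the 250 bases before an annotated start, searched on both strands, the extended CTCF core, which holds AGGNGGC and further fixed letters before it, was found in 1 member (Slc4a8), 2.04% of members beside 4.13% of the 17491 protein-coding genes with a window. AGGNGGC by itself was found in 22 members (44.9%, beside 31.3%). TGCNCNC, the loose form of the metal response core, was found in 32 (65.3%, beside 49.6%). A gene counts once if any of its windows holds the letters, and members and all genes had 1.20 and 1.22 windows each. A peak overlapped the window of 2 members in untreated 1 (Mt1 and Slc30a5, beside 1.80% of all genes), of 1 in chromium 1 (Slc39a1, beside 1.34%) and of none in the number 2 lists, where 0.600% and 0.0743% of all genes had one. A match describes letters and does not show a binding site.

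Other genes of metal and chromate handling are given beside the share of all protein-coding genes with a zone peak, which was 25.8% and 28.6% in the number 1 lists (untreated, then chromium) and 11.4% and 4.86% in the number 2 lists. Of 21 iron and heme genes, 1 and 6 had a zone peak in the number 1 lists and 2 and 0 in the number 2 lists, and none had a gene-end peak in any list, beside 8.55% of all genes. Of 10 copper genes, 5 had a zone peak in each number 1 list and 1 in each number 2 list. Gene-end peaks of this group were called in chromium 1 alone (3 of 10, beside 4.31% of all genes). They were at the copper chaperone gene Atox1 (the 72.2 percentile), at Commd1 (32.1) and at Slc31a2 (22.6). The peak of Atox1 was 0.193 kb from an end. Those of Commd1 and Slc31a2 were just inside the 1 kb limit, at 0.996 and 0.958 kb. Of 12 genes of chromate reduction, such as those of glutathione synthesis, 5 and 7 had a zone peak in the number 1 lists and 1 and 0 in the number 2 lists, and Gclm, a subunit of the enzyme that limits glutathione synthesis, had a gene-end peak at 90.3 in untreated 1. Of 11 genes for sulfate activation and carbonic anhydrases, 3 and 2 had a zone peak in the number 1 lists and 0 in the number 2 lists, none of them at a gene end. The untreated-only and chromium-only patterns were found at 0 genes of these 4 lists, beside 1.26% and 0.521% of all genes, shares too low to expect many in lists of this size.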

How the data were processed

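CTCF-bound chromatin of Hepa-1c1c7 cells was immunoprecipitated and sequenced in 4 libraries. Reads were processed with Bowtie and MACS2 on mm10, per the submitters' processing notes. Peak names in the deposited lists name 1 library and 1 input each. Tool versions and thresholds are not given in the sources used. Each deposited peak has a score, the authors' own value, whose scale is not stated and which served only as a percentile within a list. Depth is unknown, so the lists' lengths do not measure occupancy. The inputs were not analysed here.

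Peaks on chromosomes 1 to 19, X and Y were read into 1-based mm10 coordinates. Gene positions and promoter sequences came from RefSeq on GRCm38.p6, which shares mm10 coordinates, with each gene identifier counted once. Exons and introns were not annotated here, and the strand was known only for the 49 genes with a promoter window. For the others the ends are called lower and higher by coordinate. Peaks of different lists overlapping by at least 1 bp were merged into sites. Bases inside a gene record are not printed beyond 30. Groups were taken from the sample titles and compared by exact permutation of the 4 libraries (two-sided), with Benjamini-Hochberg adjustment over 3 tests.

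The zone and site code was tested on simulated data. Members, gene lists and tests were chosen with earlier results of these data known. Named are the metallothioneins and Mtf1, each member with a gene-end peak, a shared site or a peak at or above the 95 percentile, and those with a treatment pattern. Other members with a peak were named for completeness, after their values were seen. Alternatives were other windows, thresholds, list lengths and left-out libraries. Python 3.11.15, numpy 2.4.6, pandas 2.3.3, scipy 1.17.1 and matplotlib 3.10.9 were used.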

Additional observations from a re-analysis of the deposited data

How the results depend on the processing

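No difference by treatment passed its test under any alternative run, and no design with 2 libraries a group can pass it. The direction of the zone share (-4.76 points) turned with lists of equal length, to 5.56 points, and that of the share of peaks to 0.105 points. The gene-end difference (3.97 points) turned to -0.794 with a window of 500 bp and -2.38 with 2.5 kb. Leaving out 1 library at a time gave -20.6 to 11.1 points for the zone share, -2.38 to 10.3 for the gene-end share and -0.0976 to 0.0901 for the share of peaks. Members with the untreated-only pattern numbered 1, and 3 with a flank of 20 kb, with 1 to 9 over the left-out libraries. Members with the chromium-only pattern numbered 1, but 0 with a flank of 20 kb, with peaks at or above the median score or without chromosome 15, and 2 with lists of equal length, with 1 to 7 over the left-out libraries. Shared sites numbered 12, but 7 at or above the median score and 4 with equal lengths, and 2 to 11 over the left-out libraries. The cause of these shifts was not tested. With the replicate number as a block the differences were -4.76, 3.97 and -0.00377 points (exact sign-flip test, p = 1 each, 0.5 being the smallest). Over all 21883 genes the deviations of same-numbered libraries correlated at 0.148, and at -0.122 over the 9062 genes with a zone peak. The labels do not say that a number marks a shared culture, and with 2 pairs the numbers were taken as names only. Pairing the numbers crosswise, added after the data were seen, gave 0 calls.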
